A study of Homo sapiens with 2 samples.

Results

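CXCL9 (also called MIG), CXCL10 (IP-10) and CXCL11 (I-TAC) are secreted CXC chemokines that interferons switch on. They were followed here in THP-1 cells, a human monocytic leukaemia cell line, with and without lipopolysaccharide (LPS), the endotoxin of Gram-negative bacteria. The members were chosen by probe name, A_23_P18452 for CXCL9, A_24_P303091 for CXCL10 and A_23_P125278 for CXCL11. The pairing of these names with genes is that of the Agilent catalogue, since the files name no gene for these probes. All 3 probes were present, among 75149 probes in all, and each had 2 spots per array. The Con group was 1 array of THP-1 cells without LPS and the LPS group 1 array of LPS-stimulated cells, both of the same line in the same medium. The labels give 48 h of treatment and name DMSO beside LPS, whereas the study's methods call the Con cells untreated, and the LPS dose is not given in the sources used here. Both arrays sat on the same slide and used 1 colour, so the position on the slide and the condition cannot be told apart. The identity of the cells was not checked against monocyte markers, because the files give gene names for a few control probes alone. The Con and LPS labels were likewise not checked against other genes known to respond to LPS, since catalogue names were used for the 3 members alone. Every direction given rests on the labels.

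CXCL9, CXCL10 and CXCL11 are ligands of the receptor CXCR3, which sits on activated T cells and natural killer cells, and through it they draw these cells into inflamed tissue. Interferon gamma drives all of them, and type I interferons drive CXCL10 and CXCL11 most readily, in part through a promoter element called the interferon-stimulated response element (ISRE). In macrophages, LPS binds TLR4, which activates NF-kappa B directly and induces interferon beta, and monocytes and macrophages are a well-known source of CXCL10. CXCL11 also binds a decoy receptor, ACKR3.

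The genes lie next to each other on chromosome 4, in the order CXCL9, CXCL10 and CXCL11, and are read from the minus strand. Between the starts of CXCL9 and CXCL10 lies the start of 1 further protein-coding gene, ART3. The promoter sequences of the 3 genes are shown, as given by RefSeq for GRCh38.p14. Each is the 250 bases before the transcription start, 5′ to 3′ on the gene's strand, and capitals mark matches to the motifs searched.
CXCL9 (chr4:76007510-76007759, minus strand): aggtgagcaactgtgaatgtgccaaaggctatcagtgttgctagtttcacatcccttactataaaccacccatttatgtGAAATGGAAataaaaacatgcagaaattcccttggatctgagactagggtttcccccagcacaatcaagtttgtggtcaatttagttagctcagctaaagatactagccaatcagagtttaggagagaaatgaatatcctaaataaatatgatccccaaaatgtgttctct
CXCL10 (chr4:76023498-76023747, minus strand): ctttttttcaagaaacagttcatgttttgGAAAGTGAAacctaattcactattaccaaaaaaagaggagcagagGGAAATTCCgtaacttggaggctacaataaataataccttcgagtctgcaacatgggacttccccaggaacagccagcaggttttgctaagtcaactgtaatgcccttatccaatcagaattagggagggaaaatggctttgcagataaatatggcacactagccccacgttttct
CXCL11 (chr4:76036071-76036320, minus strand): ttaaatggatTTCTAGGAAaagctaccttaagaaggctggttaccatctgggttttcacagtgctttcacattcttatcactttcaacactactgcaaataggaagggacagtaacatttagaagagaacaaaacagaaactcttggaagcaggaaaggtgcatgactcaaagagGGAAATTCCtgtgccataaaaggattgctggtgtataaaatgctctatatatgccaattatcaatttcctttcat

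The motifs were searched on both strands in the window from 250 bases before to 50 bases after the start. They were GAAANNGAA, an inner part of the ISRE, TTCNNNGAA, the core of the gamma-activated site (GAS), an element of many genes that interferon gamma induces, and GGANNTTCC, an inner part of the NF-kappa B site. CXCL9 held 1 match, to the ISRE letters, which began 171 bases before the start. CXCL10 held 1 match to the ISRE letters, 221 bases before the start, and 1 to the NF-kappa B letters, 176 bases before it. CXCL11 held 1 match to the NF-kappa B letters, 75 bases before the start, and 2 to the GAS letters, of which 1 began 240 bases before the start and the other lay in the first transcribed bases and is not printed. The NF-kappa B matches of CXCL10 and CXCL11 had the same 9 letters, GGAAATTCC, which match on both strands. Of 35116 promoter windows of the same length in the RefSeq table, 8.11% held the ISRE letters, 7.66% the GAS letters and 4.56% the NF-kappa B letters. None of the 3 letter patterns was found in all 3 windows. The patterns are strict, and a site whose letters deviate from them was not counted. A missing match therefore does not show that a site is absent. A match is a match of letters alone, and binding was not measured here.

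**Figure D1:**
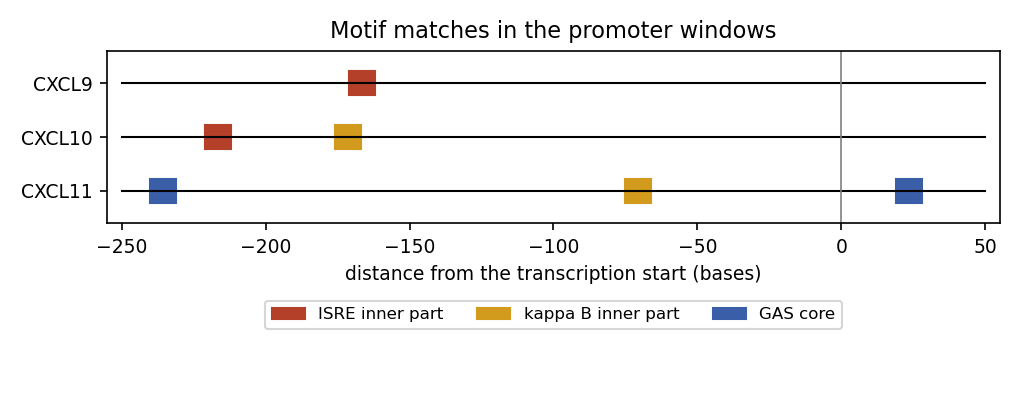
Positions of the motif matches in the promoter windows of CXCL9, CXCL10 and CXCL11, with distance from the transcription start in bases on the x axis and 1 line per gene. Boxes mark matches to the ISRE, GAS and NF-kappa B (kappa B) letters, and CXCL10 is the gene with both an ISRE and an NF-kappa B match.

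All 3 chemokine probes were lower on the LPS array than on the Con array. CXCL10 was lower by 28.0-fold, CXCL11 by 8.29-fold and CXCL9 by 4.23-fold after each array was scaled to its 75th percentile. The direction was the same in all 6 pairs of spots at the same position of the arrays. It is the opposite of an induction by LPS, and the reason was not tested. Each condition is a single array, so nothing can be tested and the spread between cultures is unknown. The errors given are SDs between the spots of a probe, which describe technical error alone. They rest on 2 spots per array, are themselves imprecise and leave out the pairing of spots by position. Pooled over probes well above background on both arrays, the SD between spots was 0.16 on Con and 0.17 on LPS (log2). In RNA from a whole culture, fewer cells that express a gene and less of its RNA per cell cannot be told apart.

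The largest difference was that of CXCL10, the member of the group most often used as a readout of interferon activity. On the Con array its spots had signals of 4413 and 3172, and on the LPS array 149 and 145. Both Con spots were far brighter than both LPS spots, and the arrays did not overlap. The scanner software's own error estimate was 441 and 317 for the Con spots and 15.0 and 14.7 for the LPS spots. The difference, LPS minus Con, was -4.81 ± 0.34 (log2, SD from the spots, 2 spots per array), so that 3.57% of the scaled Con signal was left on the LPS array. Most of this spread came from the Con spots, whose SD was 0.34 (log2), against 0.03 for the LPS spots. The pairs of spots gave -5.03 and -4.59.

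CXCL11, the ligand known for the highest affinity to CXCR3, had the smallest spread between the spots within each array. Its Con spots had signals of 375 and 343, and its LPS spots 47.6 and 47.3. Both LPS spots lay well below both Con spots. The difference was -3.05 ± 0.09 (log2, SD from the spots, 2 spots per array), with 12.1% of the scaled Con signal left on the LPS array. The pairs of spots gave -3.11 and -2.99. With the normexp background correction and an added offset of 50, an amount close to the LPS signal itself, the difference was -2.08, or 4.24-fold. An added constant by itself shrinks the folds of dim probes. Normexp was not run without the offset, so the effects of the correction and of the offset cannot be told apart.

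CXCL9, the member that depends most strictly on interferon gamma, had the smallest difference. Its Con spots had signals of 1004 and 891, and its LPS spots 261 and 230. Again the dimmer Con spot was brighter than the brighter LPS spot. The difference was -2.08 ± 0.17 (log2, SD from the spots, 2 spots per array), and 23.6% of the scaled Con signal was left on the LPS array. The pairs of spots gave -2.08 and -2.08, the closest pairs of any member, although the spots lay far apart on the array, in rows 129 and 947.

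**Figure D2:**
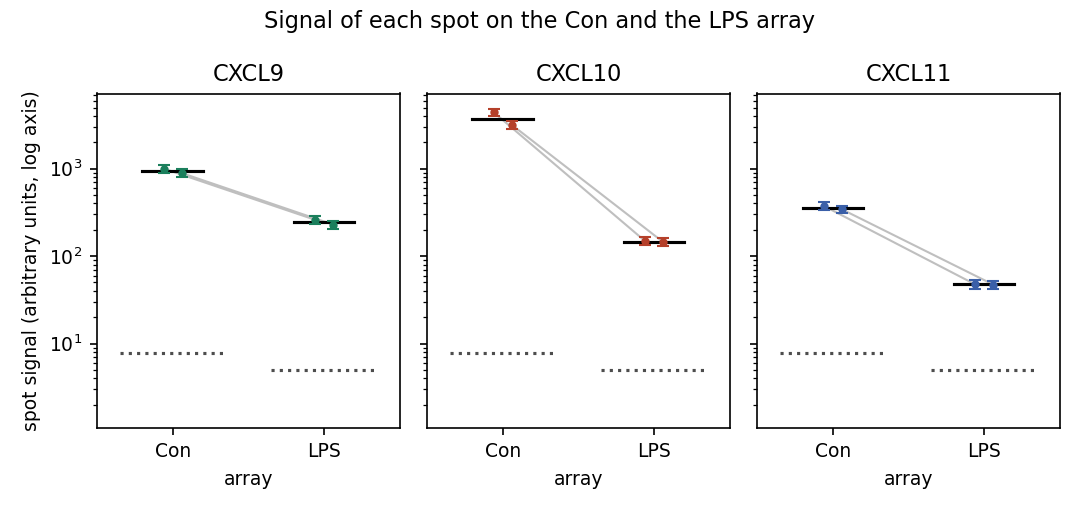
Signal of every spot of CXCL9, CXCL10 and CXCL11 on the Con and the LPS array (y axis, arbitrary units before scaling, log axis). Points are spots with the scanner software's error estimate, grey lines join spots at the same position, black bars are the geometric means and dotted lines the 99th percentile of the negative control spots (7.90 on Con and 4.96 on LPS); in each panel both LPS spots sit below both Con spots and above the dotted line.

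None of the 12 spots of these probes carried an outlier flag or was saturated, and all were marked well above background on both arrays. The differences are therefore measured and not lower bounds. The raw median intensity of the CXCL10 spots was 262 and 173 times the local background on the Con array and 9.39 and 9.29 times on the LPS array. For CXCL9 the Con spots stood at 59.9 and 45.5 times the local background and the LPS spots at 13.6 and 13.9 times. CXCL11 came closest to the background, with 25.7 and 21.0 times on the Con array and 4.28 and 4.11 times on the LPS array. Its LPS signal of 47.4 still exceeded the 99th percentile of the 600 negative control spots of that array, which was 4.96.

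The order of the differences, CXCL10 before CXCL11 before CXCL9, was set against the spread between spots. The difference of CXCL10 was larger than that of CXCL11 by 1.76 (log2), with an SD of 0.35 from the spots of both probes, which is 3.38-fold. The difference of CXCL11 was larger than that of CXCL9 by 0.97, with an SD of 0.20, which is 1.96-fold. Scaling by a single factor cannot change these gaps. Under normexp the gap between CXCL11 and CXCL9 narrowed to 0.19, while that between CXCL10 and CXCL11 was 2.29. The gap of 0.19 is no larger than the SD of 0.20 of the main setting. No spot SD was computed under normexp, so whether the order of CXCL11 and CXCL9 holds beyond the spot error there cannot be said. Levels of different probes were not compared with each other, since a signal also depends on how well a probe binds its target.

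The whole array gives the measure for these differences. Calls were made at a difference of 2-fold or more between Con and LPS. All 3 chemokine probes were called lower and 0 higher, against 15.3% of all probes called lower and 0.723% called higher. These shares also count probes detected on 1 array alone, by a bound. Of the 61465 probes well above background on both arrays, as these 3 were, 4562 were called lower and 504 higher. Of the 34235 probes with A_ names, the form of name that these 3 share, 11.3% were called lower. Lower calls gathered among dim probes, and of the probes at or above the median signal 2.11% were called lower. CXCL9 and CXCL10 lay above that median and CXCL11 below it. The share of lower calls among all calls depended on the normalization, with 95.5% in the main setting, 71.6% under cyclic loess and 56.1% under quantile normalization. The median difference was -3.05 (log2) over the 3 chemokine probes and -0.13 over all probes. It was -0.05 over the 61465 probes well above background on both arrays.

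Among these 61465 probes, ordered from the lowest difference, CXCL10 stood in place 15, CXCL11 in place 136 and CXCL9 in place 712. Differences as low as that of CXCL9 or lower were thus found for 1.16% of these probes, as low as that of CXCL11 for 0.221% and as low as that of CXCL10 for 0.0244%. All probes lower than CXCL10 in this order had A_ names, among which it also stood in place 15.

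The difference between the arrays also varied with the signal. With all probes divided into 10 groups of equal size by mean signal, from dim to bright, CXCL9 and CXCL10 fell in group 8 and CXCL11 in group 5. The median difference was 0.03 (log2) in group 8 and -0.11 in group 5, against -1.84 in the dimmest group. In group 8, 5 of 7515 probes, CXCL10 included, were lower by as much as CXCL10, and 36 by as much as CXCL9. In group 5, 28 of 7515 were lower by as much as CXCL11. Of the probes of group 8, 1.65% were called at least 2-fold lower, and of those of group 5, 5.35%.

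**Figure D3:**
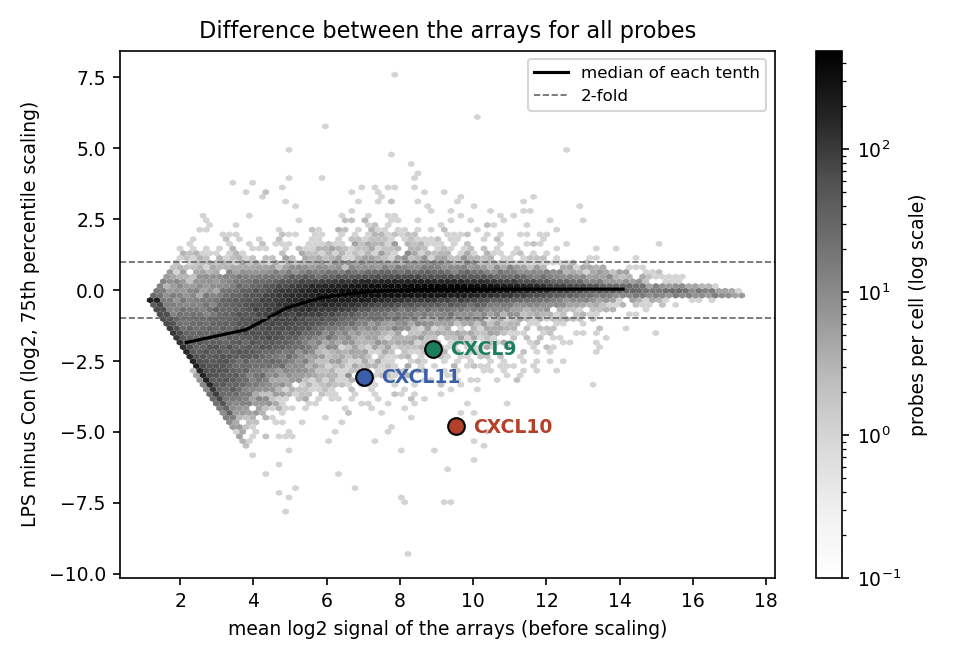
Difference between the arrays (y axis, LPS minus Con, log2 after 75th percentile scaling) against the mean log2 signal (x axis) for all 75149 probes, as a grey density on a log scale, with the median of each of 10 signal groups as a black line and 2-fold as dashed lines. CXCL9, CXCL10 and CXCL11 lie at -2.08, -4.81 and -3.05, below the dense band of probes with a like signal.

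The places of the spots on the array were also looked at. Each chemokine spot was set beside the spots within 20 rows and 20 columns that were well above background on both arrays, between 1301 and 1426 of them. The median difference of these neighbours lay between -0.09 and -0.01 (log2) at all 6 places. None of the neighbours of either CXCL10 spot was lower by as much as that spot. At the CXCL11 spots the number was 6 and 0, and at the CXCL9 spots 20 and 17. The chemokine spots thus differed far more than the median of the spots around them.

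The arrays also carry control spots. The 10 E1A spike-in controls detect RNA that does not come from the cells, and their signals ran from 29.4 to 1943. After scaling they differed by -0.54 to 0.26 (log2). The value of -0.54 was that of 1 dim control, with a signal of 39 on Con and 29.4 on LPS. The other E1A controls were higher on the LPS array, by 0.05 to 0.26. Each chemokine probe was lower on the LPS array by more than any E1A control. The 4 control probes named for human GAPDH and PGK1, a pair of glycolytic enzymes, were higher on the LPS array, by 0.33 to 0.54 after scaling and by 0.46 to 0.67 without it. Their direction was not computed under quantile normalization or cyclic loess, which left control spots out.

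Under each of the 10 alternatives run for the scaling, background correction and averaging of spots, all 3 chemokine probes remained at least 2-fold lower on the LPS array. Several of these could hardly move the members. With 2 unflagged spots per array, the median or the keeping of outlier spots changes no member average. The authors' table holds nearly the same averages. Other scalings by a single factor shift every probe alike. Normexp, quantile normalization and cyclic loess could move the members by unlike amounts. CXCL10 ranged from 20.7-fold to 29.9-fold lower, CXCL11 from 4.24-fold to 8.87-fold and CXCL9 from 3.71-fold to 4.53-fold. Without any scaling the folds were 25.5, 7.56 and 3.86 for CXCL10, CXCL11 and CXCL9.

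**Figure D4:**
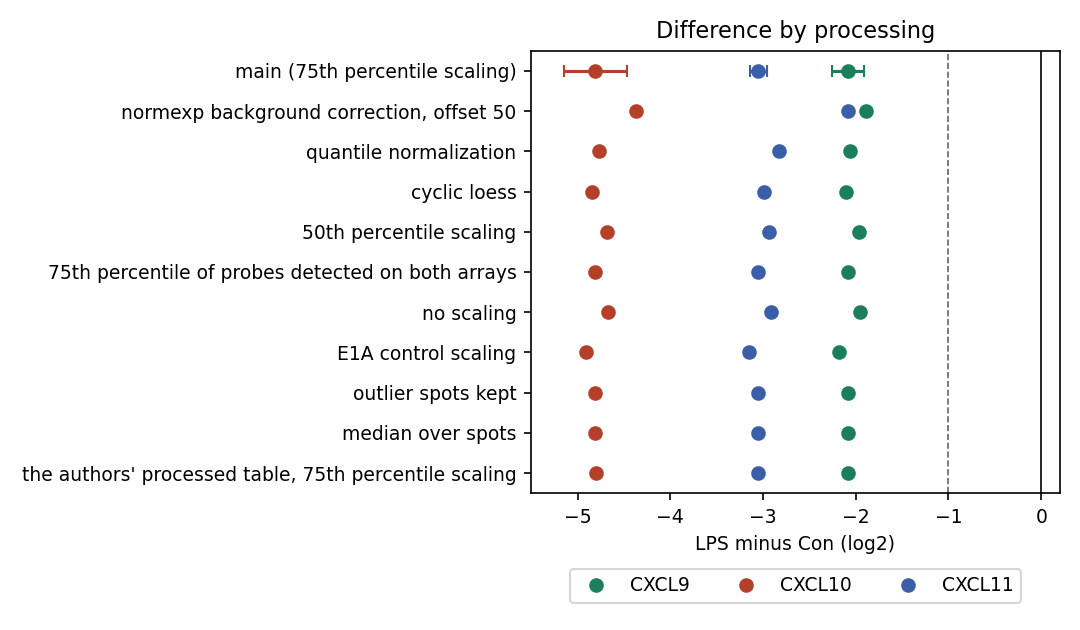
Difference of CXCL9, CXCL10 and CXCL11 (x axis, LPS minus Con, log2) in the main setting and under each alternative (y axis). Bars in the top line are SDs from the spots, the dashed line marks 2-fold lower and all points lie to its left; CXCL10 is always the lowest, and CXCL11 moves closest to CXCL9 under normexp.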

How the data were processed

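Total RNA of THP-1 cells was labelled with Cy3 and hybridised to 1 array per condition. The authors deposited, for each array, the spot intensity of Agilent Feature Extraction 11.5.1.1, background-subtracted and spatially detrended by that software and not scaled between arrays, with flags per spot of 0 or 1 (other values) from the same software. The authors also deposited a table of 1 intensity per probe, which holds 65460 of the probes. Set against the unscaled average of all spots of a probe on the log2 scale, 97.1% (Con) and 96.9% (LPS) of its values differed by at most 0.001. The column medians were 136 and 137, and whether anything beyond this was done is not given in the sources used here.

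Control and outlier spots were left out, log2 intensities were averaged per probe with no pseudocount, and each array was then centred on the 75th percentile of its 75149 probe values. This lowered LPS by 0.13 (log2) relative to Con. Detection was a majority of spots well above background. A probe detected on 1 array alone was given a bound. The number of arrays limits the precision, and no test was possible. The members and lists were chosen with earlier results of these data known. The named genes were, by rule, the members, the E1A and human-named controls and the probes nearest to the members in level. The last are not given, because signals of different probes cannot be compared. The lists of pathway genes and cell type markers were not run, as no table used here pairs these probes with genes. Amino acid sequences were not used here. Alternatives comprised normexp (on median intensities, offset 50), quantile, cyclic loess, other scalings, spot handling, call filters and thresholds, and the authors' table. The gaps between members and the lower counts under these were added later. The code was tested on simulated data. Python 3.11.15, numpy 2.4.6, pandas 2.3.3, matplotlib 3.10.9, R 4.3.3 and limma 3.58.1 were used.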

Additional observations from a re-analysis of the deposited data

How the results depend on the processing

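No alternative turned the direction of CXCL9, CXCL10 or CXCL11 or brought one of them under 2-fold, though several could hardly move these probes. Under normexp the differences (LPS minus Con, log2) were -1.89 for CXCL9, -4.37 for CXCL10 and -2.08 for CXCL11, the gap between CXCL9 and CXCL11 was 0.19 and that between CXCL11 and CXCL10 was 2.29. The difference of CXCL11 also moved by more than its spot SD under quantile normalization (-2.83, with a gap to CXCL9 of 0.77), 50th percentile scaling (-2.93), no scaling (-2.92) and E1A scaling (-3.15). That SD of 0.09 rests on 2 spots per array. It is smaller than the pooled SD between spots of either array, 0.16 on Con and 0.17 on LPS. Leaving out 1 spot at a time gave -2.17 to -1.99 for CXCL9, -5.04 to -4.57 for CXCL10 and -3.11 to -2.99 for CXCL11.

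Of all probes, 543 were called higher and 11473 lower in the main setting. The numbers were 312 and 1314 under normexp, 2827 and 3610 under quantile normalization, 1648 and 4165 under cyclic loess, 1794 and 16530 at 1.5-fold, and 108 and 3405 at 4-fold. With calls restricted to probes well above background on both arrays, 504 were higher and 4562 lower. The authors' table, which holds 65460 probes and not all 75149, gave 463 and 10134, so its numbers are over another set of probes. The other alternatives kept both numbers within 1.5 times of the main ones. The cause of these shifts was not tested. No paired analysis was possible because neither condition has more than 1 array. Signal over background limits CXCL11 most, at 4.28 and 4.11 times the local background on the LPS array.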
